A study of Mus musculus with 2 samples.

Results

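HIF1A is the oxygen-regulated subunit of the transcription factor HIF-1, and the genes studied here are Hif1a and 9 genes of glucose use that are textbook targets or partners of HIF-1: the glucose carriers Slc2a1 and Slc2a3, the enzymes Hk2, Pfkp, Pgk1, Pkm and Ldha, the lactate carrier Slc16a3 and the mitochondrial kinase Pdk1. The 10 genes were selected by their symbols from 24203 genes on the array, as a list drawn up with earlier results of these data known, and all 10 were found. The array annotation writes Pkm under its older symbol Pkm2. They are covered by 25 transcript rows, each a summary of 3 probes.

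Single-colour NimbleGen arrays were used to measure expression in LT-HSCs, the haematopoietic stem cells that maintain blood over the long term, sorted from bone marrow of C57BL/6 mice aged 8 weeks. One group was wild type for cia-cGAS, a circular RNA named for the DNA sensor cGAS, and the other was knockout for it. Each group has 1 array, so no difference below has a replicate check, no test was run, and the values describe these 2 samples. The sources used here do not give how the knockout was made, the sort markers, the number of cells or any pooling of animals.

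HIF-1 is a pair of the alpha subunit HIF1A and ARNT. In well oxygenated cells, prolyl hydroxylases mark the alpha subunit for removal by way of VHL, so much of its control lies in the protein and is not seen in mRNA. Blood stem cells are known for residing in poorly oxygenated marrow and for a metabolism that leans on glycolysis. Pyruvate dehydrogenase kinases switch off pyruvate dehydrogenase, which limits the use of pyruvate in the mitochondria. HIF-1 binds short DNA motifs with the core ACGTG or GCGTG.

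The stretches before the start sites of 4 of the genes are shown because they hold these cores, and because the genes differ in the arrays: the first 3 passed 2-fold and the last did not. Sequences are from RefSeq on GRCm38.p6, 250 bases each, written 5′ to 3′ on the strand of the gene, with each core (on either strand) in capitals.
Hif1a, chr12:73907617-73907866, plus strand: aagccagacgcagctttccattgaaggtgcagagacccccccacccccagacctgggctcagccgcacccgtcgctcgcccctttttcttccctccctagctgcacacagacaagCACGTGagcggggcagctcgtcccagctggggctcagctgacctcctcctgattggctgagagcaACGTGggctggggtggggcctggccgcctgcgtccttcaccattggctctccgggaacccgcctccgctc
Hk2, chr6:82774455-82774704, minus strand: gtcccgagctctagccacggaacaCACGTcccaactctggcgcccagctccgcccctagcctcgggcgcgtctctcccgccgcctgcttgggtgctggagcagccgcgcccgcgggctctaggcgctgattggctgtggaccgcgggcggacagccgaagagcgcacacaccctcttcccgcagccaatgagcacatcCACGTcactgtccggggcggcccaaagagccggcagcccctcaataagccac
Pdk1, chr2:71872974-71873223, plus strand: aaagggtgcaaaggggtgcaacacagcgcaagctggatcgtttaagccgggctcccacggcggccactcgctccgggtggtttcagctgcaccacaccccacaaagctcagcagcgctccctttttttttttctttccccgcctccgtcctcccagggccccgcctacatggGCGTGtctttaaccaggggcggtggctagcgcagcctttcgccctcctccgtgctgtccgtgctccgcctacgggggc
Pgk1, chrX:106186850-106187099, plus strand: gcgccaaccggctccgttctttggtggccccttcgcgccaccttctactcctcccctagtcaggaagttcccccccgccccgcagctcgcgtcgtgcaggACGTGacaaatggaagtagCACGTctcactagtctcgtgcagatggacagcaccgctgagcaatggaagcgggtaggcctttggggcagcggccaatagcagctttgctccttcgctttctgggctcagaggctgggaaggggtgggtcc

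The cores of Hif1a begin 135 and 70 bases before the start site, those of Hk2 226 and 52 bases, that of Pdk1 78 bases and those of Pgk1 150 and 131 bases. In the Hif1a stretch the first core lies in CACGTG, which reads the same on both strands and was counted as 1 site. The RefSeq promoter table, with windows of 300 bases that run 50 bases past the start, held 9 of the 10 genes in 12 windows, and Slc2a3 was not matched. At least 1 window of each of the 9 genes held a core, 10 of 12 windows in all, and 43.8% of the 32851 windows of the table held one. An interferon response motif (GAAA, 2 free bases, GAAA), which 3.44% of windows hold, and an NF-kB motif (GGG, 2 free bases, TTTCC), which 1.63% hold, were found in 0 of the 12 windows on either strand. A match of letters is a description of the window and shows no binding.

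Values below are log2 RMA intensities, a normalized brightness per transcript row, and differences are knockout minus wild type on that scale. Rows of different genes differ in probes, so levels are compared between the arrays and never between genes. A level counted as detected above a floor, the 95th percentile of olfactory, vomeronasal and taste receptor rows, which was 9.11 on the wild-type array and 8.97 on the knockout array. Where only 1 array passed its floor, the fold is a bound against the floor of the other. Both arrays carried transcripts of mature marrow cells. Of 8 stem cell markers, 3 passed the wild-type floor and 4 the knockout floor, while Procr, Slamf1 and Fgd5 were among those below both floors. Of 9245 genes above both floors, the median difference was -0.04 and the central 95% ran from -1.18 to 1.56. Rows of the same gene varied in their difference with a pooled SD of 0.37 over 2899 genes with several detected rows.

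Hif1a and Hk2 were more than 2-fold higher in knockout cells, Pdk1 was just past 2-fold lower, and by their brightest rows Slc2a1, Slc2a3, Pfkp, Pgk1, Pkm and Ldha differed by -0.29 to 0.17. Slc16a3 passed only the wild-type floor and has a bound alone, and other rows of Slc2a3, Pgk1 and Pkm that passed a floor differed by more. So 2 of the 10 genes passed 2-fold upward and 1 downward, where 5.53% of the 10859 genes above the floor on either array were higher and 4.06% lower. Over the 10 genes the median difference was 0.08, with 6 positive and 4 negative, against a median of -0.02 over all 10859. Of the 25 rows, 14 were above both floors, 2 above only the wild-type floor and 9 above neither.

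**Figure D1:**
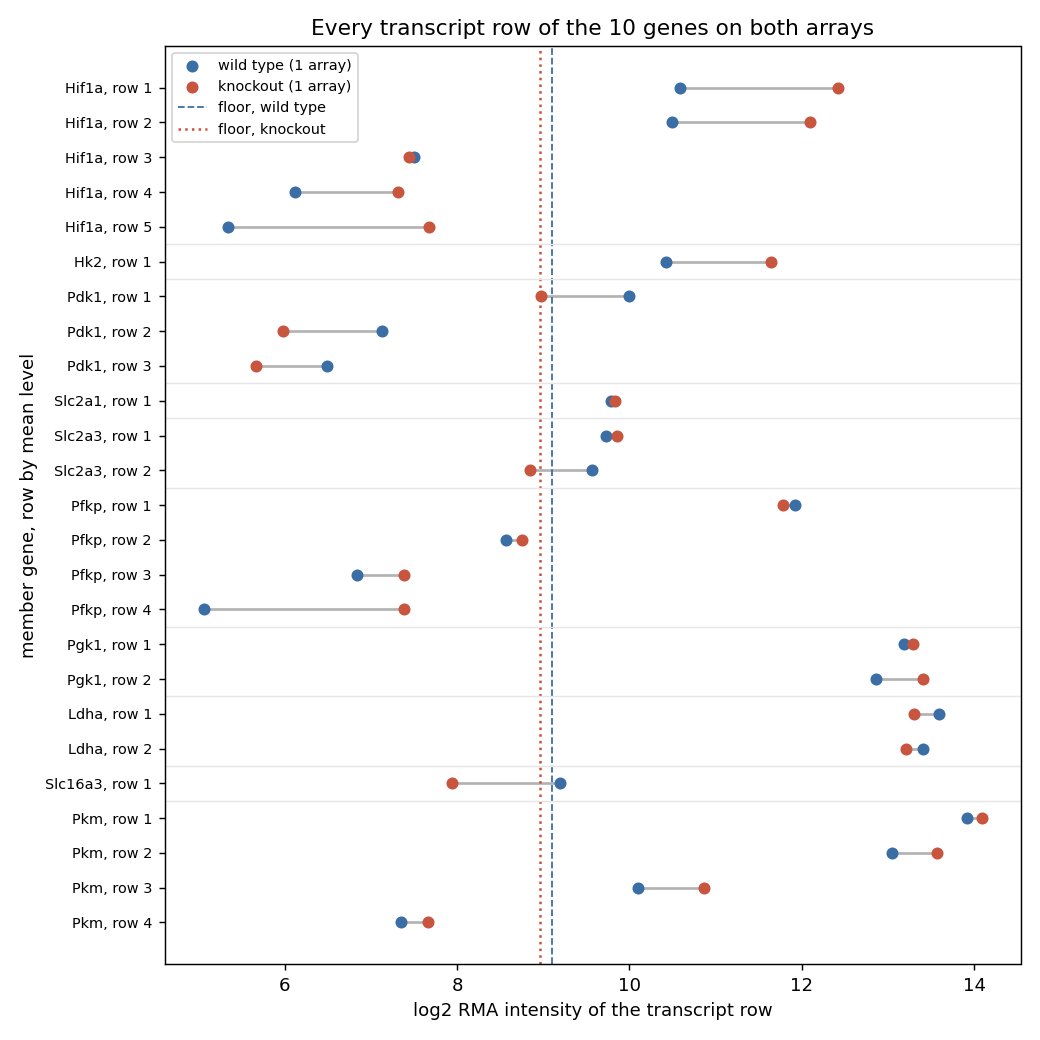
Log2 RMA intensity (horizontal axis) of each of the 25 transcript rows of the 10 genes (vertical axis), with a blue point for the wild-type array and a red point for the knockout array. Vertical lines mark the floors at 9.11 (wild type, dashed) and 8.97 (knockout, dotted), and the knockout point of Pdk1 row 1 lies on the knockout floor.

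Hif1a was the member with the largest difference. Its brightest row read 10.59 on the wild-type array and 12.42 on the knockout array, a 3.56-fold higher level (gene ID 15251, MM9 chromosome 12, 75009011 to 75048072, on the annotation of the files). The second row, which spans 75002361 to 75047878, read 10.49 and 12.09, a difference of 1.60. Both rows above the floors thus were more than 3-fold above wild type, and they lie within 0.37 of each other in difference.

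The other 3 rows of Hif1a were below both floors and measure little. Row 4, on a transcript that starts inside the gene at 75027467, read 6.12 and 7.32. Row 5, which ends at 75034063, read 5.34 and 7.67. Row 3, with nearly the same span as the brightest row, read 7.50 and 7.44, and differed from the detected rows in showing almost no difference. When all 5 rows were averaged before the floor was applied, the wild type lay below its floor and the bound for the knockout was 0.28, while the plain mean of the 5 differences was 1.38.

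In the order of differences of the 9245 genes, Hif1a stood at rank 167 from the highest, above 98.2% of them. The genes next to it were Gm2389 (1.84), Arfgef1 (1.84) and Tfec (1.83) above and Pla2g7 (1.83), Sgk3 (1.83) and Gng12 (1.80) below. With 2 arrays this likeness is that of a single difference.

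Sets of genes that mark other cells or an interferon response moved on the same arrays. All 9 measured interferon-stimulated genes were at least 2-fold higher, and their linear intensities summed to 31120 in wild-type and 213574 in knockout cells. In the same order, 10 neutrophil markers summed to 168181 and 232778, with 2 past 2-fold, and 10 monocyte and macrophage markers to 28911 and 54990, with 3 past 2-fold. Of all genes above a floor, 5.53% were at least 2-fold higher. The differences of the 10 neutrophil markers were all positive and ran from 0.02 (S100a9) to 1.47 (Itgam). The monocyte and macrophage set did not differ as one, with a positive difference in 7 of its 10 genes. Cd14, C1qb and Cd68 differed by -0.44, -0.42 and -0.29. The 3 genes of this set past 2-fold were Ctss, Fcgr1 and Ms4a6c. Ctss read 13.44 and 14.95 and, as the brightest row of the set, weighs most in its sum. Fcgr1 and Ms4a6c passed only the knockout floor. All 10 markers of both myeloid sets were above the knockout floor, and 10 and 8 were above that of the wild type. The part of these sets in the difference of Hif1a and Hk2 was not tested. In a bulk sample, a larger share of a cell type and more RNA per cell cannot be told apart.

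By their brightest rows, the partners and regulators of HIF1A did not reach 2-fold. Of 13 genes for HIF subunits and oxygen sensing, 9 were above both floors, 0 passed 2-fold in either direction, and the median difference was 0.25. Of all genes above a floor, 5.53% were at least 2-fold higher and 4.06% lower, a share at which few of 9 genes would pass. Epas1, which encodes the other main alpha subunit, HIF-2 alpha, read 13.84 and 14.09, a difference of 0.25. Arnt, the shared partner subunit, differed by 0.37 from its brightest row, and its detected rows ran from -0.07 to 0.37.

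Among the hydroxylases that tag the alpha subunits, Egln1 differed by -0.27, Egln2 by -0.02 and Egln3 by 0.15. The detected rows of Egln2 ran from -0.02 to 0.50 and those of Egln3 from -0.06 to 0.47. The highest of the list was Cited2, a competitor of HIF-1 for its coactivators and itself a HIF target, at 0.55, and the lowest was Egln1. The coactivator genes Ep300 and Crebbp differed by 0.49 and 0.44, although another detected row of Ep300 differed by 1.78. Vhl, Hif1an, Hif3a and Arnt2 were below both floors, so no fold is given for them. The difference of Meis1, a stem cell transcription factor known to act on Hif1a, was -0.05.

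The glucose carriers differed little between the arrays in their brightest rows. Slc2a1 (GLUT1), the widespread basal carrier, read 9.78 and 9.83 from its only row, which lies on chromosome 4 from 118781380 to 118809934. Slc2a3 (GLUT3), a carrier of high affinity, read 9.73 and 9.86 in its brighter row, on chromosome 6 from 122677841 to 122692521. Its other row read 9.57 and 8.84, the latter below the knockout floor, at least 1.52-fold lower. The 2 rows of Slc2a3 thus point in opposite directions, and their mean difference was -0.30.

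Both carrier genes lie less than 1 log2 unit above the floor, which limits the decrease that could be measured. Slc2a4 (GLUT4), the insulin-responsive carrier, passed only the wild-type floor and was at least 1.38-fold lower. The carrier genes Slc2a2, Slc2a5, Slc2a6, Slc2a8, Slc2a9 and Slc2a12 were below both floors.

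Hk2 encodes the inducible hexokinase, which traps glucose in the cell as its phosphate. It read 10.43 on the wild-type array and 11.64 on the knockout array, a 2.32-fold higher level (chromosome 6, 82675020 to 82724367). It has 1 row, so there is no second set of probes to set beside it. At rank 358 of 9245 it was above 96.1% of genes.

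The other hexokinases differed by less. Hk1, the housekeeping form, read 11.22 and 11.51, a difference of 0.29. Hk3, a form known from granulocytes and monocytes, read 9.91 and 10.44, a difference of 0.54. All 3 detected hexokinase genes thus had a positive difference, as did 5259 of the 10859 genes above a floor. Hk2 alone passed 2-fold, and the difference of Hk1 was smaller than the spread between rows of a gene (0.37). Hkdc1 was below both floors.

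The enzymes of the middle and end of glycolysis stayed under 2-fold in every row above a floor. Pfkp, the platelet form of phosphofructokinase, read 11.93 and 11.78 in its only row above the floor (chromosome 13, 6580423 to 6647956). Its 3 dim rows differed by 0.19, 0.54 and 2.32, all below both floors, and the last of these went from 5.06 to 7.38. The liver form Pfkl differed by -0.12, close to the value of Pfkp, and the muscle form Pfkm was below both floors.

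Pgk1, which makes the first ATP of the payoff phase, read 13.19 and 13.29 in one row and 12.86 and 13.40 in the other (chromosome X, 103382546 to 103399031 for the second). The differences were 0.10 and 0.54, both positive and both under 2-fold. Pkm, pyruvate kinase of most tissues, was higher in all 3 rows above the floor, by 0.17, 0.52 and 0.77 from the brightest to the dimmest. Its rows begin at the same base of chromosome 9, 59504414, and end between 59519539 and 59527182. The files do not say which splice form each row reads, so the M1 and M2 forms are not separated here.

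Ldha, which turns pyruvate into lactate, was slightly lower in both of its rows. They read 13.58 and 13.40 in wild-type cells and 13.30 and 13.20 in knockout cells, with differences of -0.29 and -0.20 (chromosome 7, 54101212 to 54110996 for both). Ldhb, the form that favours the reverse reaction, differed by 0.10. Ldha, Pgk1, Pkm and Gapdh transcripts have near-identical pseudogene copies in the mouse genome, which can share hybridisation, so their single values are uncertain to that extent.

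**Figure D2:**
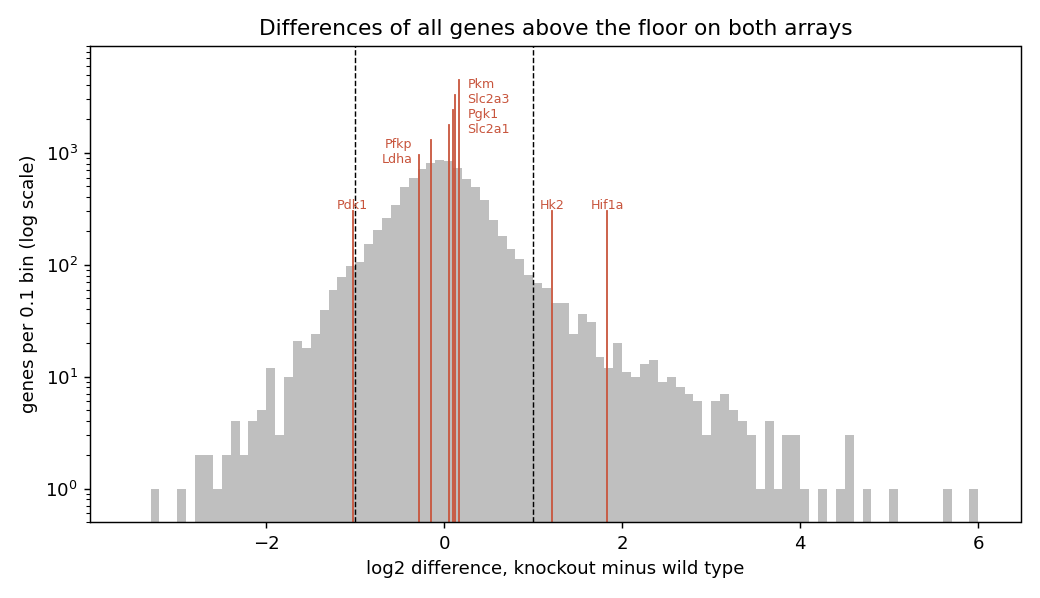
Number of genes (vertical axis, log scale) in each bin of log2 difference, knockout minus wild type (horizontal axis), for the 9245 genes above both floors, with red lines at the 9 members among them and dashed lines at 2-fold. Hif1a (1.83) and Hk2 (1.22) lie in the upper tail, Pdk1 (-1.03) sits at the lower 2-fold line and the other 6 lie between -0.29 and 0.17.

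Among the other isoforms and steps of glycolysis, the differences measured on both arrays ran from -0.80 to 0.68 by the brightest rows. Of 26 genes listed, 16 passed a floor on at least 1 array, with 8 positive and 8 negative differences, a median of 0.02, and 0 past 2-fold. Among all genes above a floor, 5.53% were at least 2-fold higher and 4.06% lower, a share at which few of 16 genes would pass. The highest was Pgam1, phosphoglycerate mutase, at 0.68, whose other detected row differed by 0.25. The lowest measured on both arrays was Bpgm, which makes bisphosphoglycerate in red cells, at -0.80. Of 10 erythroid markers, 8 passed a floor, 0 of them with a positive difference and 3 past 2-fold downward. The set summed to 126130 in wild-type and 87799 in knockout cells. This fall was uneven, with Hbb-b2 at -2.35 and the other globin genes Hba-a1 and Hbb-b1 at -0.18 and -0.21. The part of the erythroid markers in the value of Bpgm was not tested.

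Aldoa, Tpi1 and Gpi1 differed by 0.34, 0.23 and -0.24, although the detected rows of Aldoa ran from -0.64 to 0.34. Gapdh read 14.34 on both arrays, and its detected rows ran from -0.16 to 0.52. Eno1 differed by -0.14, with detected rows from -0.14 to 0.28. Pfkfb3, which makes the allosteric activator of phosphofructokinase and is a HIF-1 target, differed by -0.58 from its brightest row, with detected rows from -0.58 to 0.46. Its rows therefore do not settle a direction. Pklr, the pyruvate kinase of liver and red cells, passed only the wild-type floor and was at least 1.17-fold lower.

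Lactate leaves cells through monocarboxylate carriers, and both carrier genes with a detected level were lower in the knockout. Slc16a3 (MCT4), the exporter induced by HIF-1, read 9.19 in wild-type cells, 0.09 above the floor, and 7.94 in knockout cells, below it (chromosome 11, 120809797 to 120820086). It was at least 1.17-fold lower, and the measured difference of -1.25 rests on a value under the floor.

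Slc16a1 (MCT1), which carries lactate in both directions and was named by the list, differed more clearly. Its only row read 12.70 and 10.71, a 3.98-fold lower level, the lowest among all genes of the lists that were measured on both arrays. Bsg (basigin), the chaperone that takes both carriers to the membrane, differed by -0.28. Slc16a7 (MCT2) was below both floors. Of the 12 carrier genes measured, 5 passed a floor, 0 of them 2-fold upward and 1 downward. Among all genes above a floor, 5.53% passed 2-fold upward and 4.06% downward. Slc16a1 is also known from erythroid and dividing cells, and of the other cell sets measured, the erythroid sum was lower as given above and that of 9 measured B lineage markers was 16406 in wild-type and 2992 in knockout cells, with 6 past 2-fold downward and Cd79a among those below both floors. Their part in its difference was not tested.

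Inside the mitochondrion, Mpc1 and Mpc2, which form the pyruvate carrier, differed by 0.61 and -0.26 and stayed under 2-fold.

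Pdk1 encodes a kinase that switches off pyruvate dehydrogenase and is induced by HIF-1. Its brightest row had a linear intensity of 1022 in wild-type and 501 in knockout cells, a 2.04-fold lower level (chromosome 2, 71711328 to 71740731). The knockout floor was 499.8, so the lower value sits on it. The other 2 rows, on shorter transcripts and below both floors, differed by -1.15 and -0.82, in the same direction. With the higher floor of 551 used for both arrays, the bound was -0.89, and after loess centring the difference was -0.98, so that 2-fold was reached under neither.

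The kinases of this family differed in opposite directions. Pdk3, the isoform least restrained by pyruvate, read 9.90 and 11.98 from its only row, a 4.24-fold higher level and the highest among all genes of the lists. Pdk2, the widespread form, read 10.39 and 10.47, a difference of 0.08. Pdk4 was below both floors. So of the 3 detected kinase genes, 1 was more than 4-fold higher, 1 was near its wild-type level and Pdk1 was lower.

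The phosphatases that reverse these kinases, Pdp1 and Pdp2, differed by 0.20 and 0.50. The genes of the dehydrogenase complex itself all had a negative difference, as did 5599 of the 10859 genes above a floor. Pdha1 differed by -0.34, Pdhb by -0.76 and Dlat by -0.63. Dld, at -0.03, lay near its wild-type level. Pdhx, which passed only the wild-type floor, was at least 1.54-fold lower. None of these 5 passed 2-fold, where 4.06% of all genes above a floor were that much lower. Over the 9 detected genes of the list, which joins complex, kinases and phosphatases, the median was -0.03, with 4 positive and 5 negative differences.

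**Figure D3:**
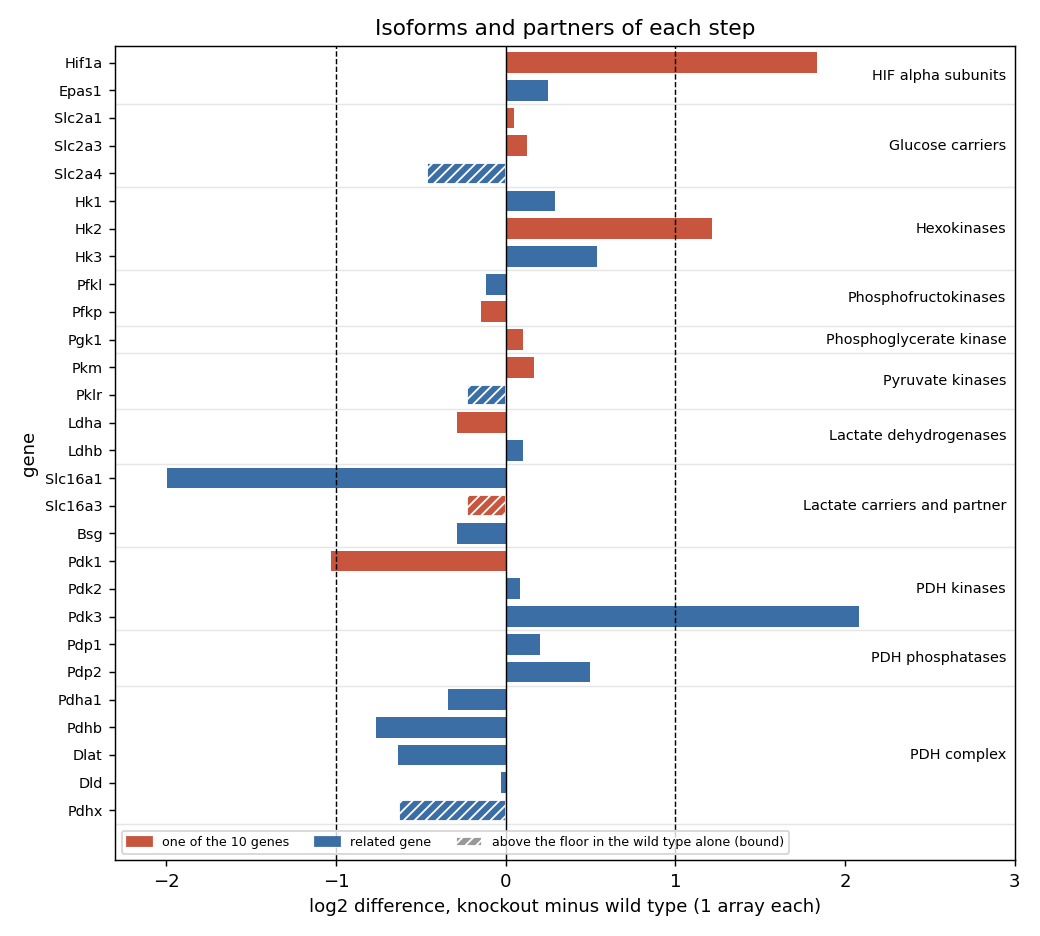
Log2 difference, knockout minus wild type (horizontal axis), of the 10 genes (red) and of related detected genes (blue), grouped by step, with dashed lines at 2-fold. Hatched bars are bounds for genes that passed only the wild-type floor, and within the group of PDH (pyruvate dehydrogenase) kinases Pdk1 (-1.03) and Pdk3 (2.08) lie on opposite sides.

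The pentose phosphate pathway, which branches from glucose phosphate to make NADPH and ribose, was detected in full. All 8 genes were above both floors, 6 with a positive and 2 with a negative difference, and the median was 0.11. Rpe was the highest at 0.99, just short of 2-fold, and 3 rows were measured for it, of which another reached 1.43. G6pdx, the entry enzyme, differed by 0.67 and Pgd, the second NADPH source, by 0.46. Pgls was the lowest at -0.66. In this list 0 genes passed 2-fold, where 5.53% of all genes above a floor passed upward and 4.06% downward.

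Other genes induced by hypoxia mostly lay within 2-fold of their wild-type levels. Of 22 listed, 14 passed a floor, 9 with a positive and 5 with a negative difference, and the median was 0.18. Past 2-fold were 0 upward and 1 downward, where 5.53% and 4.06% of all genes above a floor were. Vegfa, the angiogenic growth factor, read 12.72 and 12.82, a difference of 0.10, and its detected rows ran from -0.31 to 0.10. The mitophagy receptor genes Bnip3 and Bnip3l differed by 0.32 and -0.13.

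The highest measured on both arrays were P4ha1, a collagen prolyl hydroxylase, at 0.77 and Mxi1, a MYC antagonist, at 0.71, although the other detected row of P4ha1 differed by 0.18. Ero1a, an oxidase of the endoplasmic reticulum, passed only the knockout floor and was at least 1.17-fold higher. Tfrc, the transferrin receptor for iron uptake, read 12.83 and 11.70, a 2.19-fold lower level, and its other detected row differed by -1.54. The erythroid markers, which were lower on the same array, are given above, and their part in the value of Tfrc was not tested. Car9, Adm, Ndrg1, Ankrd37, Ddit4, P4ha2 and Nos2 were below both floors.

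Over the 92 genes measured of the 6 lists, 61 passed a floor, 1 was past 2-fold upward and 2 downward, with a median of 0.08. Of all genes above a floor, 5.53% and 4.06% did so. At 1.5-fold, 7 genes of the lists were higher and 7 lower, where 11.6% and 12.3% of all genes above a floor passed.

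**Figure D4:**
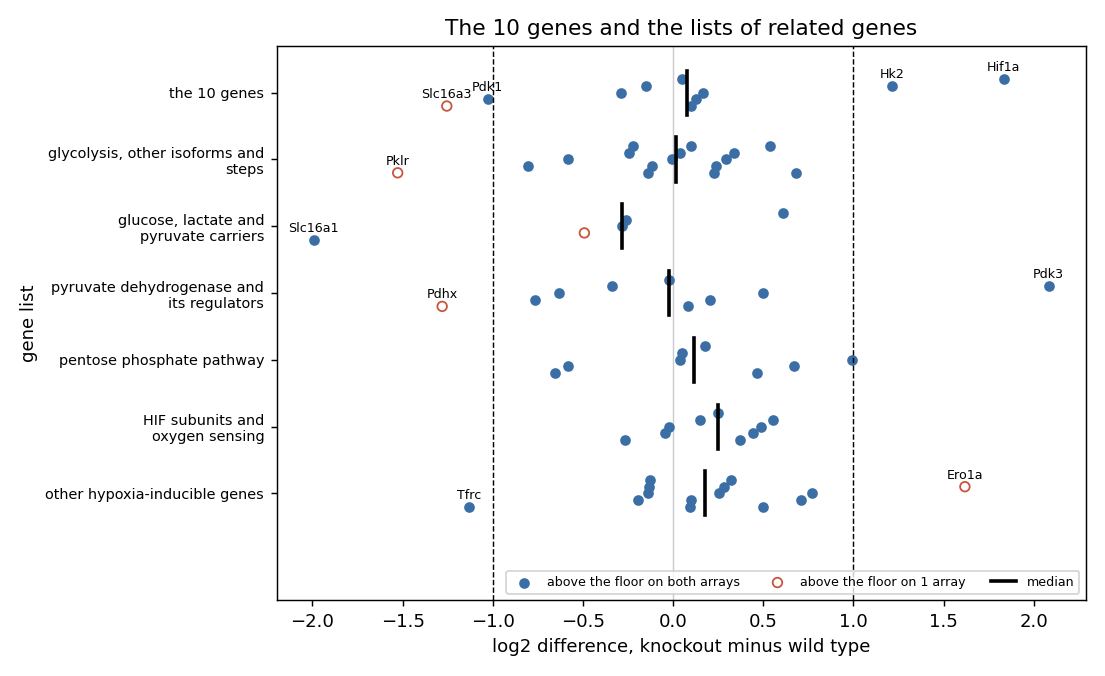
Log2 difference, knockout minus wild type (horizontal axis), of every gene above the floor on at least 1 array, for the 10 genes and the 6 lists (vertical axis); filled points passed both floors, open points 1 floor (measured value, which includes a level under the floor), black bars are medians and dashed lines mark 2-fold. List medians lie between -0.28 and 0.25, and the named points are those with a measured difference past 2-fold.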

How the data were processed

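One array of wild-type and one of cia-cGAS knockout LT-HSCs was used. RNA was copied with oligo dT primers and labelled with Cy3 for NimbleGen arrays, per the labels' protocols. The authors deposited 1 linear intensity per transcript row, made with RMA per the submitters' processing notes, with no version given. RMA generally includes quantile normalization, so differences are relative to the rest of the array. The sources used here do not say which arrays were normalized jointly. Transcript positions are on MM9 as the file annotation gives them, with the counting of the first base not stated.

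Intensities were put on the log2 scale with Python 3.11.15 and pandas 2.3.3 and not normalized again. Of 44170 transcript rows, 41886 carried a gene ID, and symbols were updated by gene ID for 39057 of them (RefSeq, GRCm38.p6, names alone). Each gene was represented by its brightest row, by the mean over both arrays. The floor was the 95th percentile of 1031 receptor rows on each array (intensity 551 for wild type, 499.8 for knockout). The median row read 273 and 271, and the random-sequence control row 36.9 on both arrays. Arrays have no read depth, and their number, 1 per group, limits the precision. No test was run. The difference and bound calculation was tested on simulated data, with planted differences well past 2-fold and noise below the spread between rows. This checked the calculation alone and does not bear on values near 2-fold. Differences of 2-fold or more were counted, bounds included.

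The 10 genes, the 6 lists, the marker sets and the isoform groups were chosen with earlier results of these data known. Named genes are the 10 members with every row, list members past 2-fold, the highest and lowest of each list, and the 3 genes on each side of Hif1a in the order of differences. Other list members were named for their role after their values were seen. Of the listed genes, Slc2a10 was not matched, and some list members are not reported here by name. Alternatives were other floors, the mean of rows, loess centring with a span of 0.3 (statsmodels 0.14.6), the series-wide table and other fold sizes. A floor common to both arrays was added after seeing the data.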

Additional observations from a re-analysis of the deposited data

How the results depend on the processing

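Of 163 values recomputed under the alternatives, 141 stayed within the spread between rows of a gene (0.37, or 1.5 times for a count), 22 moved further and 0 called differences changed sign. Many of the 141 could not move. The series-wide table holds the same intensities, and another floor leaves the difference of a gene above both floors as it was. Members left without a value were not counted. These were Pdk1, Slc2a1, Slc2a3 and Slc16a3 with the floor at the 99th percentile, and Pdk1 and Pfkp with the rows averaged. The 2 genes at least 2-fold higher became 1 at 3-fold and with the rows averaged. The 1 lower gene, Pdk1, became 0 with the floor at the 99th percentile of receptor rows, at 3-fold, with the higher floor on both arrays, after loess centring and with the rows averaged, and 2 genes were lower with a floor at the median row or no floor. With the rows averaged, the bound for Hif1a was 0.28 and Slc2a3 differed by -0.30. Slc16a3 differed by -1.11 with the floor at the median and -1.25 with no floor. In the lists, the 1 higher gene became 2 with the floor at the median or loess centring, 3 with the rows averaged or no floor and 7 at 1.5-fold. The 2 lower genes became 4 with the floor at the median, 5 with no floor, 7 at 1.5-fold and 1 at 3-fold. The median of the pyruvate dehydrogenase list, near 0, took either sign, from -0.18 with the rows averaged to 0.03 with the floor at the median, and the mean of the glycolysis list was -0.07 where its median was 0.02. With the rows averaged the floor can leave a gene with no value, since dim rows pull it under. The cause of the other changes was not tested. Leaving out a sample and a paired analysis were not possible because each group has 1 array. Signal close to the floor limits Pdk1, Slc16a3, Slc2a1 and Slc2a3.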
